A study of Mus musculus with 8 samples.

Results

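Transcripts of enteric neurons and enteric glia were followed in the intestine of 8 mice by reading 27 genes known from these cells out of the table of all 49585 gene identifiers. The genes were chosen by name, with earlier results of these data known. Of the 27 genes 20 are neuronal. Among these, 9 are of the cytoskeleton and RNA binding (Elavl3, Elavl4, Uchl1, Tubb3, Stmn2, Stmn3, Prph, Nefl and Nefm) and 3 of the synapse and of excitability (Snap25, Syt1 and Scn3a). Another 4 are of transmitters (Nos1, Vip, Chat and Gal) and 4 are regulators and receptors of the lineage (Phox2a, Hand2, Ret and Gfra1). The other 7 are glial: S100b, Sox10, Gfap, Foxd3, Ednrb, Gfra2 and Cdh19. Total RNA from frozen intestine of C57BL/6 mice was sequenced, 4 mice that were recipients of Klebsiella and 4 that were recipients of Lactobacillus, with 1 library from each mouse. Both are genera of bacteria that live in the gut. What else the mice received, for how long, their age and the stretch of gut taken could not be read from the labels. The series has no other group. Each library carries the name of its group and its number from the labels, as in Klebsiella mouse 1.

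The enteric nervous system lies inside the gut wall, in the myenteric plexus between the muscle layers and in the submucosal plexus beneath the mucosa. Its neurons excite muscle with acetylcholine and tachykinins and relax it with nitric oxide and vasoactive intestinal peptide, and its glia surround the neuron bodies and fibres. Both arise from neural crest cells that need Sox10, Ret and endothelin receptor type B, encoded by Ednrb. Smooth muscle is the tissue next to the myenteric plexus, so the neuronal and glial transcripts are set beside muscle transcripts of the same libraries.

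Promoters were read to show what sequence lies before 3 neuron members whose transcripts moved together and before 1 glia member that did not share their order. The table of RefSeq promoters (GRCm38.p6) used here held 18 of the 27 members. The 250 bases before the start are printed 5′ to 3′ on the gene's strand for Vip, of the neuropeptide members the one with the highest level, for Gal, the one that varied most, for Prph, a neuronal filament, and for Foxd3, a glial regulator. Capitals mark the letters TGACGT, the core of the cAMP response element, and TATAAA, a sequence the general transcription machinery can bind, each searched on both strands.
Vip promoter, chr10:5638968-5639217, plus strand: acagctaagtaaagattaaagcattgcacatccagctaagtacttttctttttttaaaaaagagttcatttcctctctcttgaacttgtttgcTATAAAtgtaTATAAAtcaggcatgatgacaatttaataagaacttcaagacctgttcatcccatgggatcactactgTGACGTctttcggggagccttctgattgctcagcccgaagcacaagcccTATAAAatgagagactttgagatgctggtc
Gal promoter, chr19:3414545-3414794, minus strand: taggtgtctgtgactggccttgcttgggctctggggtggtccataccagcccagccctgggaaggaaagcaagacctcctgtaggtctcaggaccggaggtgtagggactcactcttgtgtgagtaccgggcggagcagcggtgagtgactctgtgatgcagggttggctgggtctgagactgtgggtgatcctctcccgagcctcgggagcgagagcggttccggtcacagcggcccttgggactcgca
Prph promoter, chr15:99054924-99055173, plus strand: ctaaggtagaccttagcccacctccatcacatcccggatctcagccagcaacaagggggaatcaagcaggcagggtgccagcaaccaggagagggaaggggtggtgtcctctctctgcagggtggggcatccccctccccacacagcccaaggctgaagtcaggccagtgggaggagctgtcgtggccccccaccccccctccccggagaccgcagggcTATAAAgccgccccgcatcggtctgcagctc
Foxd3 promoter, chr4:99656049-99656298, plus strand: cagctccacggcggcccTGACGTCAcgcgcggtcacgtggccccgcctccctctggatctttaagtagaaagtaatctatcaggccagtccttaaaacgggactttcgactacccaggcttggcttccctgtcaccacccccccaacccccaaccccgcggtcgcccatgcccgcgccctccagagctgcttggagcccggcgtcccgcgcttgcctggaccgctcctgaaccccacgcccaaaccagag
Vip held TATAAA at 3 places and TGACGT once. Prph held TATAAA once, close to its start. In Foxd3 the matches of TGACGT on the 2 strands overlap in 1 palindrome, and Gal had no match. TGACGT on either strand was found for 5 of the 18 members (Chat, Ednrb, Elavl4, Foxd3 and Vip) and in 6.47% of 32851 mouse promoters. TATAAA was found for 3 of the 18 (Elavl3, Prph and Vip) and in 12.4% of the promoters. The members were counted as genes and the shares are of promoter entries, of which a gene can have several. The counts and the shares are thus not in the same unit. A match is a string of letters and does not show that a factor binds.

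The authors' read filter passed 40455910 to 55447220 reads per library, and the reads in genes recovered from the table came to between 15753959 and 21548070. Values are FPKM, reads scaled by gene length and by library size, so levels can be set side by side between genes. A member rested on 13 to 845 reads per library. Of the 27 members, 26 had a mean of at least 0.5 FPKM over the 8 libraries and were tested. Chat was the exception. Libraries of 1 group were not alike in other ways. Hoxb6, a homeobox gene that marks position along the gut, was at 40.2 FPKM in Klebsiella mouse 3 and 45.2 in Lactobacillus mouse 2, and between 1.16 and 3.87 in the other libraries. Hoxd13, another homeobox gene, was at 46.3, 3.25, 2.20 and 8.03 FPKM in Klebsiella mice 1 to 4 and at 43.9, 19.1, 27.3 and 39.2 in Lactobacillus mice 1 to 4. Ctrb1, a pancreatic protease, was at 418 FPKM in Klebsiella mouse 2 and 112 in Lactobacillus mouse 3, and at most 2.99 elsewhere. Lists of 2 other cell types separated the groups. The fat cell list had a mean log2 level of 1.17 to 2.43 with Klebsiella and of 2.66 to 4.83 with Lactobacillus, highest in Lactobacillus mouse 4. Of its 9 tested genes 6 had an unadjusted p under 0.05 in limma, against 6.07% of all genes tested. The tuft cell list was at 2.27 to 2.40 against 1.65 to 1.90, with 8 of 13 genes under that p, and in both lists 0 genes passed the adjusted p of 0.05 in limma. The part of these cells, or of gut position, in the differences between groups given for the members was not tested.

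Th, which sympathetic neurons need to make noradrenaline, was at 0 to 0.293 FPKM, while Dbh, which acts later in that pathway, was at 1.63 to 4.76. Several members are also known from other cells of the gut wall. Ednrb and Hand2 are used by stromal cells, and Uchl1 and Snap25 by endocrine cells of the epithelium. Chga and Chgb, which mark those endocrine cells, were at 36.2 to 71.2 and at 49.9 to 93.6 FPKM, above the levels of most members. Their part in the Uchl1 and Snap25 values was not tested.

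**Figure D1:**
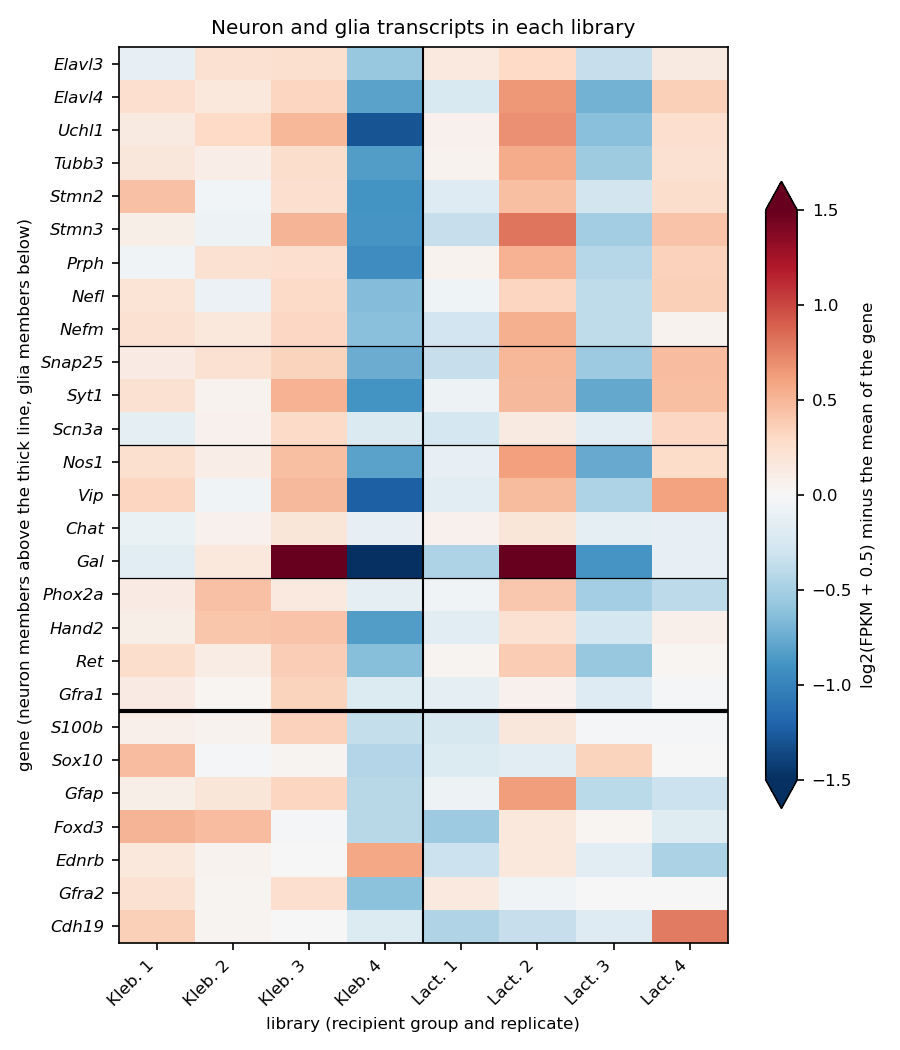
Colour gives log2(FPKM + 0.5) of each of the 27 members in each of the 8 libraries, as the difference from the mean of that gene; colours end at -1.5 and 1.5, which Gal passed. Neuron members were low together in Klebsiella mouse 4 and Lactobacillus mouse 3 and high in Lactobacillus mouse 2, while of the 7 glia members below the thick line 4 were lowest in Klebsiella mouse 4 and only Gfap had both low libraries and the high one.

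The neuronal transcripts moved together from mouse to mouse, and the mice that were low came 1 from each group. Uchl1 (ENSMUSG00000029223), the ubiquitin hydrolase PGP9.5 of neurons and the member with the highest level, was at 30.5, 34.2, 39.5 and 10.98 FPKM in Klebsiella mice 1 to 4 and at 28.9, 44.8, 17.7 and 33.0 in Lactobacillus mice 1 to 4. Klebsiella mouse 4 was lowest and Lactobacillus mouse 3 next, and the groups overlapped within a 4.08-fold span. Whether fewer neurons or less RNA in each neuron lies behind such a value cannot be told apart in bulk tissue.

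The other structural genes had the same order at their low end. Tubb3, a tubulin of neurons, was at 11.9, 11.3, 12.8 and 5.67 FPKM in Klebsiella mice 1 to 4 and at 10.9, 15.8, 7.14 and 12.5 in Lactobacillus mice 1 to 4. Prph, the intermediate filament peripherin, was at 10.5, 12.9, 13.2 and 5.52 against 11.4, 15.9, 7.97 and 14.1 FPKM. In both genes the groups overlapped, with Klebsiella mouse 4 lowest and Lactobacillus mouse 2 highest. Stmn2, a tubulin regulator of growing axons, was at 15.6, 10.97, 13.6 and 5.87 against 9.82, 15.6, 9.23 and 13.7 FPKM. Its relative Stmn3 was at 6.53, 5.77, 8.91 and 3.09 against 4.73, 11.1, 4.12 and 8.38 FPKM. Stmn3 varied more than Stmn2 and separated Lactobacillus mouse 2 more clearly from the rest. The RNA-binding Hu proteins Elavl4 and Elavl3 were lower, at 1.03 to 3.69 and at 0.491 to 1.31 FPKM, and the neurofilaments Nefl and Nefm at 0.511 to 1.54 and at 0.542 to 1.83. All 9 structural members had Klebsiella mouse 4 and Lactobacillus mouse 3 as their 2 lowest libraries.

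Release and excitability genes kept to that order in part. Snap25, a SNARE protein of vesicle fusion, was at 5.88, 6.38, 6.91 and 3.00 FPKM in Klebsiella mice 1 to 4 and at 4.12, 7.80, 3.52 and 7.58 in Lactobacillus mice 1 to 4. Syt1, the calcium sensor of vesicle release, was at 3.57, 3.09, 4.48 and 1.37 against 2.79, 4.35, 1.53 and 4.24 FPKM. Both had the same 2 lowest libraries as Uchl1. Scn3a, a voltage-gated sodium channel, was the exception among the 3, at 0.899, 1.13, 1.40 and 0.839 against 0.796, 1.21, 0.876 and 1.43 FPKM. Its lowest library was Lactobacillus mouse 1 and its span only 1.80-fold.

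Of the transmitter members, Vip and Nos1 of inhibitory neurons were well above Chat. Vip, vasoactive intestinal peptide, was at 18.7, 14.4, 21.05 and 6.13 FPKM in Klebsiella mice 1 to 4 and at 13.3, 21.03, 10.7 and 23.02 in Lactobacillus mice 1 to 4. Nos1, the neuronal nitric oxide synthase, was at 5.31, 4.73, 6.20 and 2.31 against 3.99, 7.01, 2.40 and 5.44 FPKM. For both, Klebsiella mouse 4 and Lactobacillus mouse 3 were lowest and the groups overlapped. Tac1, the tachykinin gene of excitatory neurons, is not a member and was looked up after its values were seen. It was at 10.4 to 24.7 FPKM, which overlaps the range of Vip. Chat, which makes acetylcholine, was at 0.313 to 0.524 FPKM from 15 to 29 reads per library and was not tested. Slc18a3, the vesicular acetylcholine transporter that lies within the Chat gene on the same strand, was at 0.422 to 1.53 FPKM, so reads of this locus cannot be split between them with certainty. The handling of overlapping genes and of strand in the authors' counting was not stated in the sources used here.

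Gal, the neuropeptide galanin, had the widest span of all members, 16.4-fold. It was at 4.45, 5.63, 17.2 and 1.05 FPKM in Klebsiella mice 1 to 4, from 50, 77, 200 and 13 reads, and at 3.51, 16.2, 2.47 and 4.57 in Lactobacillus mice 1 to 4, from 40, 228, 38 and 57 reads. A single library in each group stood far above the other 3. These were Klebsiella mouse 3 and Lactobacillus mouse 2, the same 2 in which Hoxb6 was high and in which the endocrine cell list had its highest mean log2 levels (4.41 and 4.25, against 3.23 to 3.78 in the other libraries). The part of gut position or of endocrine cells in the Gal values was not tested.

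Regulators and receptors varied less. Hand2, a transcription factor of enteric neurons that muscle and stroma also use, was at 6.39, 8.15, 8.22 and 3.11 FPKM in Klebsiella mice 1 to 4 and at 5.29, 7.09, 4.88 and 6.33 in Lactobacillus mice 1 to 4. Ret, the signalling receptor for GDNF, was at 4.02, 3.59, 4.39 and 1.93 against 3.38, 4.41, 2.06 and 3.36 FPKM. Both had Klebsiella mouse 4 lowest. Gfra1, the co-receptor that binds GDNF for Ret, was at 4.51 to 6.77 FPKM, only a 1.501-fold span, and Phox2a, a homeodomain factor of autonomic neurons, was at 2.28, 2.95, 2.32 and 1.81 against 1.97, 2.86, 1.29 and 1.44 FPKM. Phox2a was lowest in Lactobacillus mouse 3. Klebsiella mouse 4 was the lowest of its own group but lay above Lactobacillus mice 3 and 4.

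**Figure D2:**
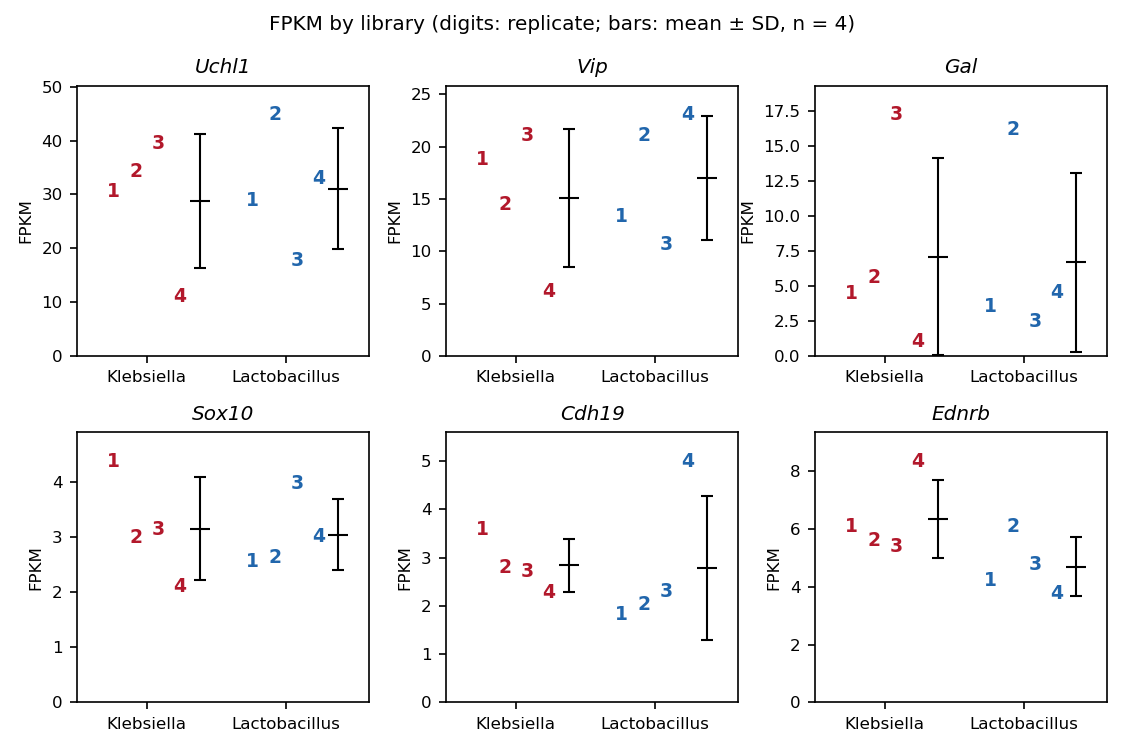
FPKM of 3 neuron members (upper row) and 3 glia members (lower row) by recipient group; each digit is the mouse number of 1 library, and the bar beside it is the mean with its SD (n = 4). In every panel the groups overlap; Gal has 1 high library in each group, and Ednrb is highest in Klebsiella mouse 4, where Uchl1 and Vip are lowest.

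The glial transcripts did not share 1 order. Sox10, the transcription factor of the crest and of glia, was at 4.37, 2.99, 3.14 and 2.10 FPKM in Klebsiella mice 1 to 4 and at 2.55, 2.63, 3.96 and 3.01 in Lactobacillus mice 1 to 4. Its 2 highest libraries were Klebsiella mouse 1 and Lactobacillus mouse 3, the second of which was low in neuronal transcripts. Foxd3, a crest factor kept by glia, was at 3.00, 2.89, 1.93 and 1.34 against 1.18, 2.24, 2.01 and 1.67 FPKM. Gfap, the intermediate filament of glia, was at 3.12, 3.37, 3.78 and 2.07 against 2.74, 4.76, 2.08 and 2.23 FPKM. Gfap alone among the 7 was highest in Lactobacillus mouse 2, as most neuron members were, and alone among them had Klebsiella mouse 4 and Lactobacillus mouse 3 as its 2 lowest. S100b, a calcium-binding protein of glia, was at 1.67 to 3.02 FPKM, and Gfra2, the co-receptor for neurturin, at 3.46, 2.98, 3.52 and 1.70 against 3.25, 2.76, 2.89 and 2.88 FPKM. Klebsiella mouse 4 was lowest in both, and the other Gfra2 values lay close together.

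Cdh19 and Ednrb departed furthest from the others. Cdh19, a cadherin of glia and Schwann cells, was at 3.58, 2.79, 2.71 and 2.28 FPKM in Klebsiella mice 1 to 4 and at 1.83, 2.02, 2.30 and 4.997 in Lactobacillus mice 1 to 4. The last stood apart from the other 3 of its group, and it was also the library with the highest level of fat cell genes, whose part in the value was not tested. Ednrb was at 6.09, 5.60, 5.39 and 8.33 against 4.21, 6.08, 4.75 and 3.75 FPKM. It was the only member with its highest value in Klebsiella mouse 4.

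Across the 8 libraries the neuron members had 1 common pattern, which the glia members shared in part. Klebsiella mouse 4 and Lactobacillus mouse 3 were the 2 lowest libraries for 17 of the 19 tested neuron members and for 1 of the 7 glia members, against 4.57% of all 16865 genes tested (771 genes). These 2 libraries were singled out after their values had been seen. Klebsiella mouse 4 alone was lowest for 17 of the 19 neuron members, for 4 of the 7 glia members (S100b, Sox10, Gfap and Gfra2) and for 10 of 16 other glial genes, against 19.2% of all genes. Lactobacillus mouse 2 was highest for 11 of the 19 and for 1 of the 7, against 12.0% of all genes. The mean log2 level of the neuron members was highest in Lactobacillus mouse 2 (2.81) and Klebsiella mouse 3 (2.71). These were also the 2 libraries high in Hoxb6 and highest in the endocrine cell list. The part of gut position or of endocrine cells in the common pattern was not tested. The mean Pearson r between pairs of members, over 8 libraries, was 0.83 among neuron members, 0.24 among glia members and 0.39 between a neuron and a glia member. It was 0.83 among the 17 smooth muscle genes, 0.46 between a neuron member and a muscle gene and 0.32 between a glia member and a muscle gene, against 0.0108 for all genes. These are descriptions, and the genes of a library share its cells and its depth. The median span on the log2(FPKM + 0.5) scale was 1.34 for neuron members and 1.04 for glia members, against 0.72 for all genes, and a span of at least 1 was found for 15 of 19, 4 of 7 and 30.8%.

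Other neuronal genes, listed by function and not members, held a weaker form of the pattern. Of 76 such genes 60 were tested, and 30 of the 60 had Klebsiella mouse 4 and Lactobacillus mouse 3 as their 2 lowest libraries, with a mean r of 0.45. By function this was 9 of 11 cytoskeletal genes, 7 of 17 vesicle and release genes, 4 of 7 ion channels, 6 of 13 transmitter genes and 4 of 12 lineage regulators. Of 16 other glial genes it was 3, among them Gap43, which is also in the cytoskeletal list. Among genes with a mean of at least 1 FPKM, those most like the mean log2 level of the neuron members were Nsg2 (r = 0.99), Ppp2r2b (0.99), Calb2 (0.98), Ndrg4 (0.98), Syp (0.98) and Celf6 (0.98). Calb2, the calcium-binding protein calretinin of enteric neurons, was at 11.6, 12.6, 15.4 and 5.83 FPKM in Klebsiella mice 1 to 4 and at 10.2, 18.6, 7.52 and 15.6 in Lactobacillus mice 1 to 4. The most like the mean level of the glia members were S1pr3 (r = 0.96), Cc2d2a (0.96), Nrn1 (0.95), Hnmt (0.92), Castor1 (0.92) and Dctd (0.92). The r values are over 8 libraries and are the highest among many genes, so they describe likeness only.

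The first comparison asked whether neuronal or glial transcripts differed between recipients of Klebsiella and of Lactobacillus, and no member was shown to differ. With limma and Benjamini-Hochberg adjustment over all 16865 genes, 0 of 26 tested members passed an adjusted p of 0.05, where 0 of all genes (0%) did and the smallest adjusted p over all genes was 0.462. An unadjusted p under 0.05 was found for 0 of 26 members and 1024 genes (6.07%), and the groups did not overlap for 0 of 26 members and 505 genes (2.99%). With voom on the recovered reads 0 genes passed and 1046 had an unadjusted p under 0.05.

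The differences were small beside the spread of the mice. For Uchl1 the mean FPKM was 28.8 ± 12.4 with Klebsiella and 31.1 ± 11.2 with Lactobacillus (SD, n = 4 mice each), or -0.18 as Klebsiella minus Lactobacillus on the log2(FPKM + 0.5) scale (SE 0.41, adjusted p 0.939 by limma). Vip had 15.1 ± 6.57 against 17.02 ± 5.94 FPKM, or -0.23 on the log2 scale (SE 0.39, adjusted p 0.908 by limma). Gal, with 7.09 ± 7.03 against 6.68 ± 6.39 FPKM, had a difference of -0.07 on the log2 scale (SE 0.75, adjusted p 0.991 by limma), the widest error of the members. The sign of all 3 rested on single libraries: without Klebsiella mouse 4 the log2 differences were 0.22, 0.13 and 0.53, and without Lactobacillus mouse 2 those of Uchl1 and Gal were 0.02 and 0.45.

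Phox2a had the largest difference among neuron members, 2.34 ± 0.466 against 1.89 ± 0.712 FPKM or 0.28 on the log2 scale (SE 0.23, limma adjusted p 0.806). It was 0.18 without Klebsiella mouse 2, 0.46 without Lactobacillus mouse 2 and 0.16 without Lactobacillus mouse 3. Ednrb had the largest among glia members and the smallest p of all 26, 6.35 ± 1.35 against 4.70 ± 1.01 FPKM or 0.40 on the log2 scale (SE 0.18, limma unadjusted p 0.0593, adjusted p 0.774). Of its 4 Klebsiella libraries 2 were below the highest Lactobacillus library, at 6.08 FPKM. The median log2 difference was -0.04 over 19 neuron members (5 positive, 14 negative) and 0.09 over 7 glia members (6 positive, 1 negative), against -0.02 over all genes. With 1 library left out these medians ran from -0.26 (without Lactobacillus mouse 3) to 0.22 (without Klebsiella mouse 4) and from -0.00734 (without Lactobacillus mouse 1) to 0.19 (without Klebsiella mouse 4). By function it was -0.12 for cytoskeletal, -0.03 for synaptic, -0.07 for transmitter and 0.10 for regulator and receptor members.

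**Figure D3:**
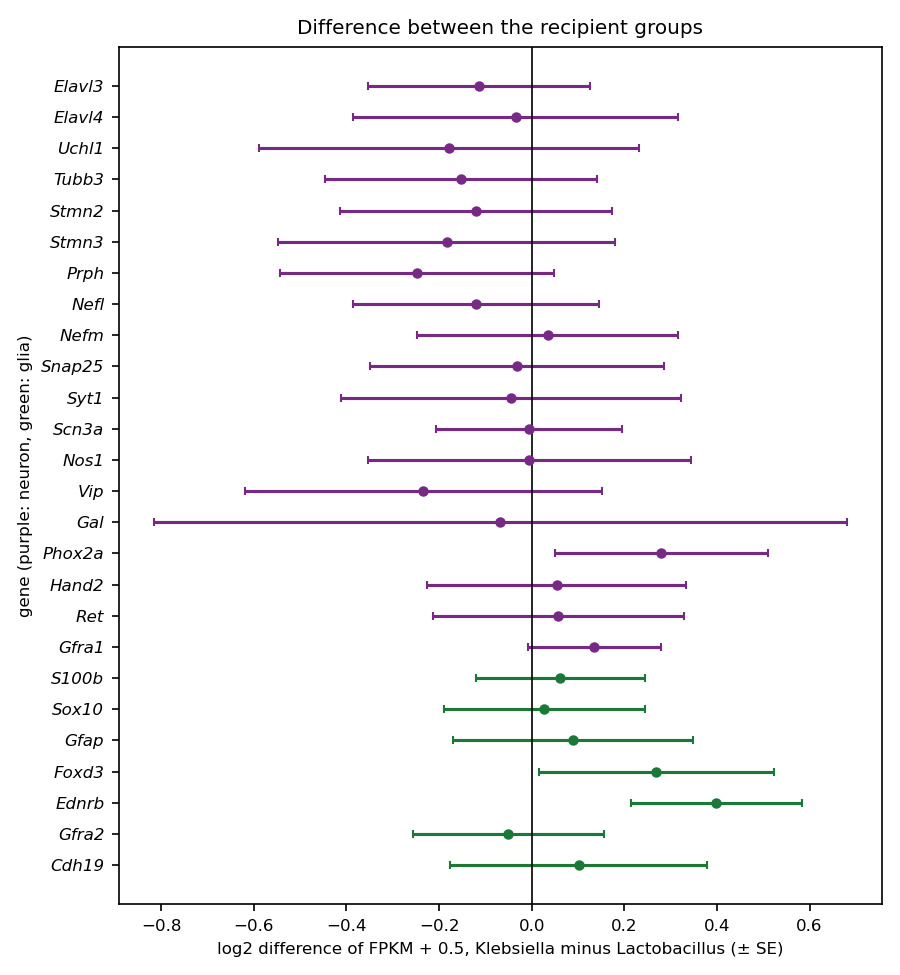
Log2 difference in FPKM + 0.5 between recipients of Klebsiella and of Lactobacillus for the 26 tested members, with the SE as bars (4 libraries per group; limma). The differences run from -0.25 to 0.40, Gal has the widest error, and none passed the adjusted p of 0.05.

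Of the other neuronal lists, 0 of 60 tested genes passed, and 2 had an unadjusted p under 0.05, against 6.07% of all genes. Both were lower in Klebsiella recipients. These were Isl1, a homeobox factor of enteric neurons and also of endocrine cells, at -0.67 on the log2 scale (SE 0.20, adjusted p 0.774 by limma), and Ddc, the decarboxylase that makes serotonin and dopamine, at -0.35 (SE 0.13, adjusted p 0.774 by limma). Isl1 was at 2.32, 1.83, 2.11 and 2.91 FPKM in Klebsiella mice 1 to 4 and at 2.97, 3.36, 4.47 and 5.09 in Lactobacillus mice 1 to 4. The groups did not overlap for Isl1, which held for 2 of the 60 genes, against 2.99% of all genes. Of the 12 ligands and receptors for GDNF and endothelin signals, 0 had an unadjusted p under 0.05. Gdnf itself had the smallest, with 0.578, 1.79, 1.42 and 0.805 against 0.694, 0.547, 0.580 and 0.764 FPKM, a difference of 0.46 on the log2 scale (SE 0.26, adjusted p 0.774 by limma). Of the 16 other glial genes 0 had an unadjusted p under 0.05. Of the 12 genes through which enteric transmitters act on muscle 1 had such a p, against 6.07% of all genes. This was the muscarinic receptor Chrm3, with a difference of 0.63 on the log2 scale (SE 0.27, adjusted p 0.774 by limma).

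The second comparison related neuronal and glial transcripts to muscle in the same libraries. The muscle index of a library was the mean log2(FPKM + 0.5) of 17 smooth muscle genes such as Myh11, Acta2 and Des, none of them a member. It was 5.67, 5.79, 6.06 and 4.58 in Klebsiella mice 1 to 4 and 5.52, 4.88, 5.17 and 5.50 in Lactobacillus mice 1 to 4. The mean was 5.52 ± 0.65 against 5.27 ± 0.30 (SD, n = 4 each), a difference of 0.26 (two-sided exact permutation p 0.543; the smallest p that 70 assignments can give is 0.0286). Single libraries moved it: without Klebsiella mouse 4 it was 0.57, where the groups did not overlap (exact permutation p 0.0571). Without Klebsiella mice 2 and 3 and Lactobacillus mouse 2 in turn it was 0.17, 0.0815 and 0.13. Klebsiella mouse 4 was lowest in muscle as in neuronal transcripts, and Klebsiella mouse 3 was highest in muscle and second in neuronal transcripts.

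The mean log2 level of the 19 neuron members was 2.43, 2.43, 2.71 and 1.505 in Klebsiella mice 1 to 4 and 2.16, 2.81, 1.80 and 2.51 in Lactobacillus mice 1 to 4, that of the 7 glia members 2.03, 1.88, 1.90 and 1.499 against 1.52, 1.84, 1.71 and 1.73. In Klebsiella mice 1 to 4 the neuron level minus the muscle index was -3.24, -3.37, -3.34 and -3.08. In Lactobacillus mice 1 to 4 it was -3.36, -2.08, -3.37 and -2.99. The highest value was that of Lactobacillus mouse 2, which had the most neuronal RNA and the second lowest muscle index. The glia level minus the muscle index ran from -4.16 to -3.04 and was highest in Lactobacillus mouse 2 and Klebsiella mouse 4. The neuron level minus the glia level was 0.40, 0.54, 0.81 and 0.01 in Klebsiella mice 1 to 4 and 0.64, 0.96, 0.10 and 0.78 in Lactobacillus mice 1 to 4. The 2 levels were about equal in Klebsiella mouse 4 and Lactobacillus mouse 3, the libraries lowest in neuronal transcripts, and furthest apart in Lactobacillus mouse 2.

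**Figure D4:**
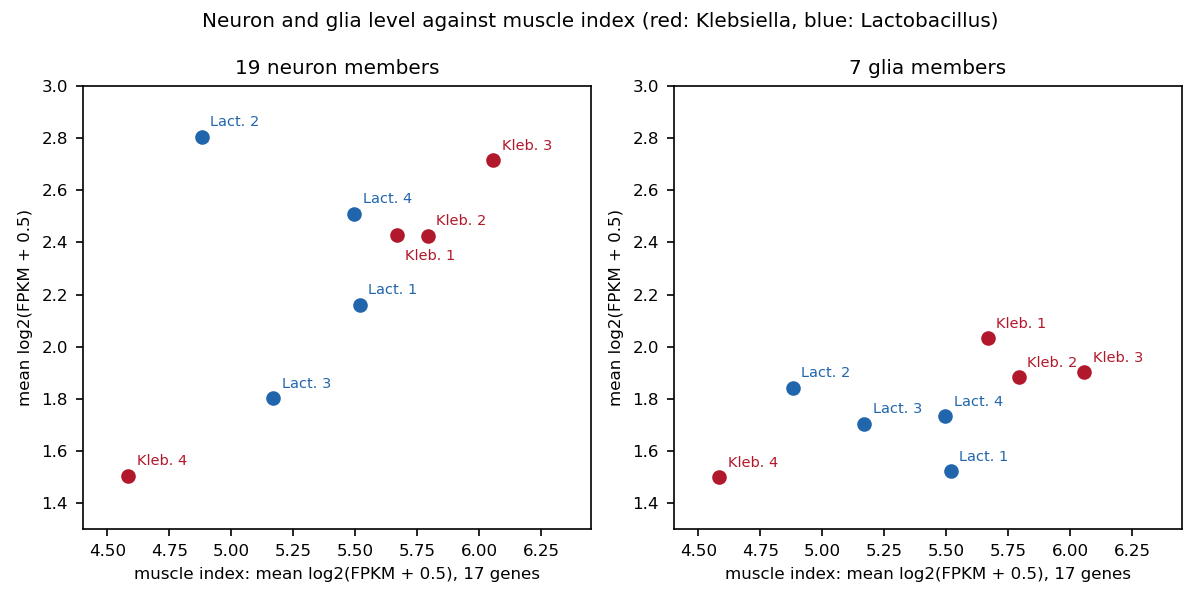
Mean log2(FPKM + 0.5) of the 19 tested neuron members (left) and of the 7 glia members (right) against the muscle index of the same library; each point is 1 library. In the left panel Klebsiella mouse 4 lies at the lower left and Lactobacillus mouse 2 lies alone at the upper left, and the glia level spans 1.499 to 2.03 only.

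Each gene's slope on the muscle index, with group in the model, gives its log2 change per log2 unit of muscle. All 19 neuron members had a slope above 0 and 6 of the 7 glia members did, with medians of 0.55 and 0.27, against 52.7% above 0 and a median of 0.01 over 16848 genes outside the muscle list. Of the members 0 of 26 passed an adjusted p of 0.05 in limma, where 23 genes (0.137%) did, 16 with a slope above 0 (0.095%) and 7 below (0.0415%). At an unadjusted p under 0.05 there were 5 of 26 members with a slope above 0, where 717 genes (4.26%) had one, and 1 below, where 491 (2.91%) did. Voom on the recovered reads called 0 members and 20 genes. The count of 23 was 2, 0, 1 and 1 without Klebsiella mice 1 to 4 in turn and 30, 11, 4 and 3 without Lactobacillus mice 1 to 4.

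The steepest members with an unadjusted p under 0.05 were Uchl1 and Vip. Uchl1 had a slope of 0.95 (SE 0.36, limma unadjusted p 0.0307, adjusted p 0.605), and Vip of 0.91 (SE 0.34, unadjusted p 0.0271, adjusted p 0.587). Hand2 had 0.69 (SE 0.23, unadjusted p 0.0176, adjusted p 0.507), Prph 0.65 (SE 0.27, unadjusted p 0.0441, adjusted p 0.664) and the glial Gfra2 0.53 (SE 0.16, unadjusted p 0.0101, adjusted p 0.404). Gal had the largest slope, 1.28, with an SE of 0.78 (limma adjusted p 0.774). Ednrb ran the other way, with a slope of -0.49 (SE 0.14, limma unadjusted p 0.00753, adjusted p 0.362). Its highest value was in the library with the lowest muscle index.

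The direction of most of these slopes turned without Klebsiella mouse 4, as long as Lactobacillus mouse 2 was kept. Without Klebsiella mouse 4 the median slope was -0.16 for neuron members (6 of 19 above 0) and -0.25 for glia members (2 of 7 above 0), and the slopes of Vip and Gfra2 were 0.0364 and 0.20. Without Lactobacillus mouse 2 the medians were 0.85 and 0.37, and Uchl1 then passed, with a slope of 1.32 (limma adjusted p 0.048). Without both, the median was 1.11 for neuron members (19 of 19 above 0) and 0.03 for glia members (4 of 7 above 0), with 0 members called in a fit of 6 libraries. The Ednrb slope stayed below 0 with each library left out in turn, from -0.75 to -0.42.

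**Figure D5:**
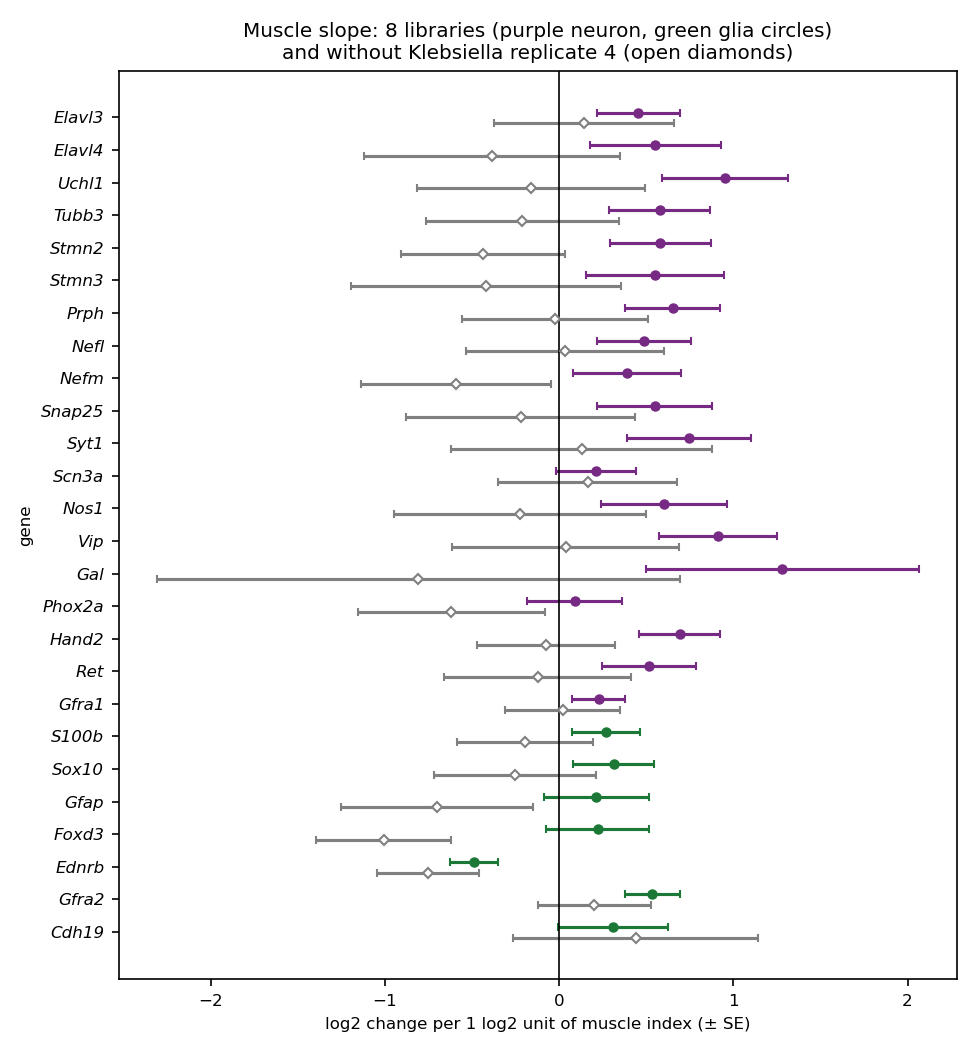
Slope of each tested member on the muscle index with its SE, from 8 libraries (filled circles, purple for neuron and green for glia members) and without Klebsiella mouse 4 (open diamonds). With 8 libraries all but Ednrb lie above 0; without that 1 library 6 of 19 neuron members and 2 of 7 glia members do.

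Genes outside the members gave a measure of how a muscle slope looks here. Mrvi1, a target of the nitric oxide and cyclic GMP pathway in smooth muscle, was called, with a slope of 0.81 (SE 0.10, limma adjusted p 0.0303). It was at 17.5, 19.1, 23.7 and 9.87 FPKM in Klebsiella mice 1 to 4 and at 15.6, 11.5, 12.8 and 17.6 in Lactobacillus mice 1 to 4. With each library left out in turn its slope was 0.77 to 0.89 and its adjusted p 0.0497 to 1.0, passing only without Lactobacillus mouse 1. Of the 12 genes through which transmitters act on muscle, 11 had a slope above 0, 6 of them at an unadjusted p under 0.05. Of the 60 other neuronal genes 58 had a slope above 0 with a median of 0.33, 5 of them at an unadjusted p under 0.05 and 0 called. Outside the muscle list 4.26% of genes had a slope above 0 at that p. The nearest of the 60 was Rims1, a protein of the release site, with a slope of 0.95 (SE 0.15, limma adjusted p 0.0715; 0.0344 by voom). Of the 16 other glial genes 14 were above 0 with a median of 0.35, led by Art3 at 0.64 (SE 0.21, limma adjusted p 0.488).

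The third comparison set the groups side by side at equal muscle. Again 0 of 26 members passed, where 0 of 16865 genes (0%) did and the smallest adjusted p over all genes was 0.278. With voom 0 genes passed and 1382 had an unadjusted p under 0.05. The median log2 difference was -0.23 over the neuron members (2 positive, 17 negative) and 0.02 over the glia members (4 positive, 3 negative), against -0.02 over all genes. Ednrb alone of the 26 had an unadjusted p under 0.05, a rule that 1323 genes (7.84%) met, with a log2 difference of 0.53 (SE 0.13, limma unadjusted p 0.00308, adjusted p 0.618). Vip had the most negative value, -0.47, followed by Uchl1 at -0.43 and Prph at -0.42. These medians depended on single libraries: without Klebsiella mouse 4 they were 0.32 and 0.32, and without Lactobacillus mouse 2 they were -0.000245 and 0.08, while without both libraries they were -0.23 and 0.19.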

How the data were processed

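RNA of 8 mouse intestines was measured, 1 library per mouse. Per the labels, libraries came from total RNA taken with Trizol and an Illumina TruSeq kit. Per the submitters' processing notes, the tools named were STAR 2.5.1b, DESeq2 1.10.1, HTSeq 0.6.0 and CASAVA, without their order or part. The build and the annotation were not stated in the sources used here. Values deposited by the authors were FPKM for 49585 gene identifiers, of which 49326 were matched to symbols in GENCODE M21. The authors also deposited read counts per library from their filter.

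FPKM was analysed as log2(FPKM + 0.5) for 16865 genes with a mean of at least 0.5, with limma 3.58.1 in R 4.3.3 (two-sided, with a mean-variance trend; Benjamini-Hochberg over all genes). Fits were made on group, on the muscle index with group, and on group at equal muscle. The added 0.5 makes changes of low genes look smaller on the log scale. Multiplied by relative library size, each gene's FPKM values were whole multiples of 1 unit (relative tolerance 1e-12). This held for all 26963 genes that 2 or more libraries held above 0. The smallest whole numbers that fit were taken as reads, also for voom. A gene whose true reads share a common factor would thus come out too low. Intervals between mice rest on 4 per group. Medians over members carry no test. The fits were tested on simulated data. The simulation drew each gene independently, so it cannot show how the fits behave where genes of a library vary together. Python 3.11.15 and scipy 1.17.1 did the rest.

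All members were named, with the genes of other lists called in a fit or else up to 3 of smallest p, and the 6 genes most like each level. Members and lists were chosen with earlier results of these data known. Alternatives were pseudocounts, filters, rescalings, voom, array weights, a replicate block, Myh11 alone as the muscle index, no group term, and leaving out libraries or pairs of libraries; removal of Klebsiella mouse 4 with Lactobacillus mouse 2 was added after seeing the data. The 9 members with no promoter entry were left out of that part. Some marker genes are not reported here.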

Additional observations from a re-analysis of the deposited data

Results flagged for a closer look

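Over the 27 members and 2 groups, 54 sets of 4 libraries were looked at for a single library far from the other 3, and 2 had a gap to the nearest value whose share of the whole range was above Dixon's critical value for 4 values. Chance gives such a gap in about 1 of 20 sets. Gal was at 16.1855 FPKM in Lactobacillus mouse 2, against 2.47 to 4.57 in the other Lactobacillus mice, a gap of 0.847 of the range. Cdh19 was at 4.99654 FPKM in Lactobacillus mouse 4, against 1.83 to 2.30 in the others, a gap of 0.851 of the range.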

How the results depend on the processing

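With 4 mice per group, members from 13 reads in a library upward were measured, and no alternative called a member between the groups. The 23 genes with a muscle slope became 2 with no filter, 0 with a replicate block, 3655 with array weights, 15 with Myh11 alone as the index, and 0 each without the 2 libraries high in Hoxb6, without the 2 high in Ctrb1 and without Klebsiella mouse 4 and Lactobacillus mouse 2. They ranged from 0 to 30 with 1 library left out. The array weights of that fit did not converge and gave Klebsiella mouse 4 a weight of 24.3, against 0.354 to 1.49 for the others, so the 21 members called there are not used. Genes differing at equal muscle numbered 2 with array weights and 1 without Klebsiella mouse 4 and Lactobacillus mouse 2, and 0 to 1 with 1 library left out. The median neuron slope was 0.91 without the libraries high in Hoxb6 and 1.11 without Klebsiella mouse 4 and Lactobacillus mouse 2, where the glia median was 0.033; with 1 library left out these medians ran from -0.16 to 0.85 and from -0.25 to 0.39. The difference in muscle index was -0.0465 without the libraries high in Hoxb6 (exact permutation p 1.0), 0.44 without Klebsiella mouse 4 and Lactobacillus mouse 2 (exact permutation p 0.1) and 0.0815 to 0.57 with 1 library left out. The median group difference of neuron members was -0.30 without the libraries high in Ctrb1 and 0.37 without Klebsiella mouse 4 and Lactobacillus mouse 2. Without that pair the group differences of Uchl1, Vip and Gal were 0.42, 0.26 and 1.05. With 1 library left out they ran from -0.42 to 0.22, from -0.43 to 0.13 and from -0.64 to 0.53, and the slopes of Vip and Gfra2 from 0.0364 to 1.19 and from 0.20 to 0.58, and those of Uchl1, Prph, Hand2 and Gal from -0.16 to 1.32, from -0.0239 to 0.90, from -0.0756 to 0.89 and from -0.81 to 2.07. The cause of these shifts was not tested. The labels do not state that mice with the same number were paired. Such mice did not deviate together (r of -0.16 to 0.19, 1 of 4 closest to its own number), which cannot show whether they were. With the replicate block 0 genes differed between the groups and 1974 had a muscle slope at an unadjusted p under 0.05.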
